A study of Mus musculus with 12 samples.

Results

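The genes described here encode the machinery of DNA replication and S phase. The list holds 41 mouse genes that load and start the replicative helicase, copy DNA, supply nucleotides, package the copies or control the step from G1 into S phase. They were chosen by name, with earlier results of these data known. Of these, 40 had a probe set with a single gene symbol on the array (Chaf1a did not), of 18194 genes in all. A gene was read from the probe set with the highest mean over the 12 arrays, and 39 of the 41 reached log2 5 on at least 2 arrays and were tested, among 9886 genes tested. Tyms, thymidylate synthase, was the gene that did not. It read 2.72, 3.52 and 3.19 in Venus-high cells and 4.88, 4.88 and 5.79 in Venus-low cells, and between 2.43 and 3.43 on the other 6 arrays.

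The arrays held RNA of CD4+ T cells sorted from S1pr2V/+ mice, which carry the fluorescent protein Venus as a reporter on 1 copy of S1pr2, which encodes a receptor for the lipid sphingosine-1-phosphate. Per the labels, all mice had received chicken gamma globulin (CGG) in complete Freund's adjuvant (CFA) under the skin 10 days earlier, although the series' design text also mentions control mice, so the state of the naive donors is not settled. Lymph nodes gave Venus-high and Venus-low follicular helper T cells (Tfh; both CXCR5+, PD1-high, CD44-high) on 3 arrays each, from pools of 4, 6 and 4 mice. They also gave PD1-intermediate T helper (Th) cells (CXCR5+, CD44-high; 2 arrays, 4 mice each) and PD1-low Th cells (CXCR5-low, CD44-high; 2 arrays, 6 and 4 mice). Naive CD4+ T cells (CD44-low, CD62L-high; 2 arrays, 2 mice each) came from spleen. The age of the mice is not given in the sources used here, and nothing says whether the pools of a group came from separate experiments, so p-values measure the spread between these arrays.

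A cell copies its DNA once per division. In G1, Cdc6 and Cdt1 load the ring of Mcm2 to Mcm7 onto replication origins, and geminin, encoded by Gmnn, later blocks Cdt1 so that no origin is loaded again. In S phase the kinase of Cdc7 and Dbf4, Mcm10 and the GINS complex turn the loaded rings into moving helicases. Primase, 3 replicative polymerases and the Pcna clamp follow. Many of these genes are transcribed by E2F factors as cells pass from G1 into S phase, so that a population with more cycling cells holds more of their mRNA. In sorted pools, fewer cells in S phase and less RNA per cell cannot be told apart.

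The arrays fell into 3 sets by the quantiles of their values, a division that the labels do not name and that was chosen from the data. Array set 1 held Venus-high 1, Venus-low 1 and naive 1, set 2 held Venus-high 2, Venus-low 2, PD1-low 1 and naive 2, and set 3 held Venus-high 3, Venus-low 3, both PD1-intermediate arrays and PD1-low 2. In set 2, 3315 probe sets lay over 3 log2 units from both other sets in 1 direction, against 542 in set 1 and 234 in set 3. None of the probe sets that stand for the 39 genes was among them. Same-numbered Tfh arrays always shared a set, so the Tfh samples were taken as 3 pairs. Each count below is given for the fit of 5 group means and for the same fit with the array set as a term. Of the T cell genes Cd3e, Cd3d, Cd3g and Cd4, each read at least 13.04 on every array, while none of the 5 myeloid and 2 erythroid markers with a probe set reached log2 5 on any array. Of 6 B cell markers with a probe set, Cd79a, Ms4a1 and Blnk stayed below log2 5 on all arrays. Cd79b read at most 3.99 in Venus-high and 6.64 in Venus-low cells. It read 6.65 and 6.68 in PD1-intermediate and 5.83 and 8.99 in PD1-low cells. Cd22 read 12.14 to 13.01 in Venus-high and 10.60 to 12.28 in Venus-low cells, and the probe set of Pax5, out of place in set 2, reached log2 5 there. The summed signal of the list was 12.16 to 13.01 (log2) in Venus-high and 10.72 to 12.29 in Venus-low cells, and its part in the results was not tested. All 3 plasma cell markers reached log2 5, with a summed signal of 10.36 to 11.42 in Tfh and PD1-intermediate cells and 8.83 to 10.25 in PD1-low and naive cells. Sdc1 read 6.68 to 8.76 in the former and 2.45 to 3.39 in the latter. Jchain read 4.13, 7.83 and 7.43 in Venus-high cells, 4.42, 4.98 and 8.33 in Venus-low cells and below log2 5 on the other arrays. The part of the plasma cell markers was not tested either. Of 3 dendritic markers, Flt3 and Itgax stayed below log2 5 and the probe set of Zbtb46, also out of place in set 2, reached 7.48. Of 3 CD8 and NK markers with a probe set, Cd8a and Ncr1 stayed below log2 5. Cd8b1 read 6.35 and 6.62 in PD1-low cells, 5.15 on the naive 2 array and below log2 5 elsewhere, and its part was not tested.

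The replication genes were highest in Venus-low Tfh. Their mean was highest in Venus-low cells for 34 of 39 genes, where this held for 8.46% of all genes tested, in PD1-intermediate cells for 4 (52.2% of all genes) and in Venus-high cells for 1 (13.3%). With values under log2 5 set to it, the mean was lowest in naive cells for 23 (43.3%), in PD1-low cells for 8 (7.53%) and in Venus-high cells for 5 (18.4%), and 3 genes were tied. The means stood in the order Venus-low, PD1-intermediate, Venus-high, PD1-low for 24 of 39 genes, against 4.32% of all genes. The same order held within array set 3 alone, array by array, for 20 of 39 genes (4.15% of all genes). In array set 2 the order Venus-low, Venus-high, PD1-low held for 36 of 39 (17.6%), and in array set 1 the order Venus-low, Venus-high, naive for 25 of 39 (13.9%).

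**Figure D1:**
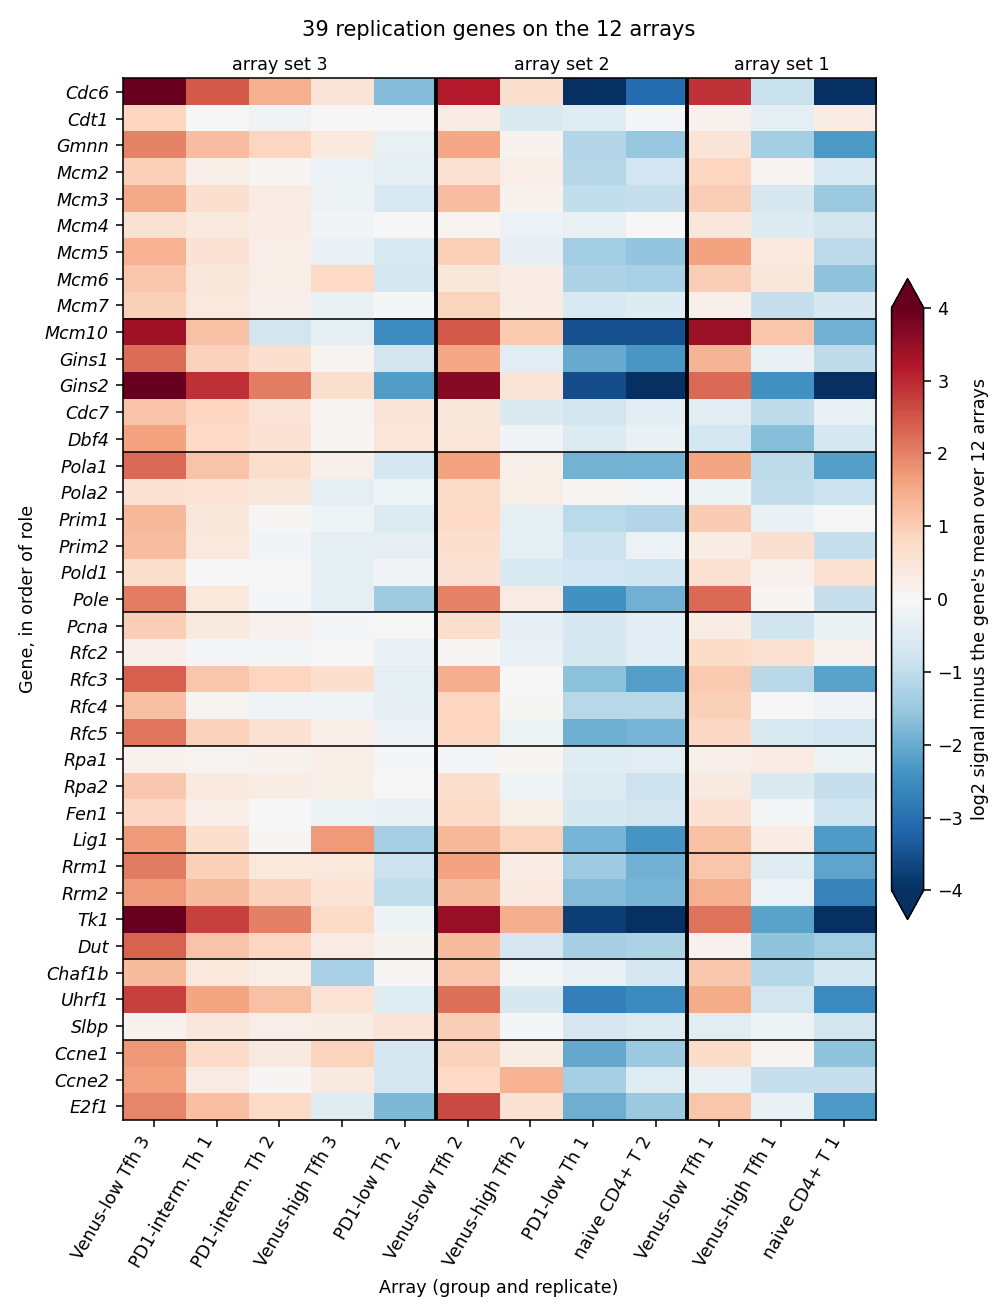
Log2 signal of each of the 39 genes (rows, in order of role, roles separated by lines) on each of the 12 arrays (columns, grouped by array set), as the difference from the gene's mean over the 12 arrays; colours end at 4 log2 units either way. The Venus-low array is the reddest column in each array set, and the rows of Cdc6, Gins2, Mcm10 and Tk1 hold the widest spread while that of Rpa1 is nearly white.

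How far a gene moved over the 5 groups varied widely. With values under log2 5 set to it, the difference between the highest and lowest group mean was at least 5.96 log2 units for Tk1, 5.66 for Cdc6, 5.07 for Gins2 and 4.83 for Mcm10, which lay under log2 5 on both naive arrays. The difference was 0.53 for Rpa1, 0.75 for Mcm4, 0.78 for Cdt1 and 0.83 for Rfc2, which read over log2 11 on every array. A level is that of a probe set, so levels are not compared between genes.

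Between the Tfh populations, 38 of 39 genes were lower in Venus-high cells, with a median difference of -1.06 log2 units against 0.02 over all genes tested. Mcm3, Pole and Chaf1b passed the test in limma's fit of group means (3 of 39 lower, 0 higher; 0.88% of all genes were called lower). With the array set as a term 30 of 39 fell and 0 rose, where 9.43% of all genes fell, and with the pair as a block on the 6 Tfh arrays 26 fell and 0 rose (6.06% of all genes). The values of the Venus-high and Venus-low arrays did not overlap for 26 genes (5.43% of all genes in that direction). The count of 3 became 0 without Venus-high 1, Venus-high 3, Venus-low 2, Venus-low 3 or either PD1-intermediate array and 1 without Venus-high 2. The count of 30 became 17 without Venus-high 3, 19 without Venus-low 3, 25 without array set 2, 21 without array set 1 and 0 without array set 3.

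The lower level in Venus-high cells was present in each Tfh pair. In pair 1 the median difference over the 39 genes was -1.14, in pair 2 it was -1.06 and in pair 3 it was -1.43, while the median over all genes was 0.0, 0.01 and 0.01. Venus-high cells were lower for 36 genes in pair 1, 37 in pair 2 and 36 in pair 3. They were lower in all 3 pairs for 34 of 39 genes (27.6% of all genes) and by over 1 log2 unit in all 3 for 19 (3.53% of all genes). The genes that were not lower in every pair were Rpa1, Lig1, Prim2, Slbp and Ccne2.

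**Figure D2:**
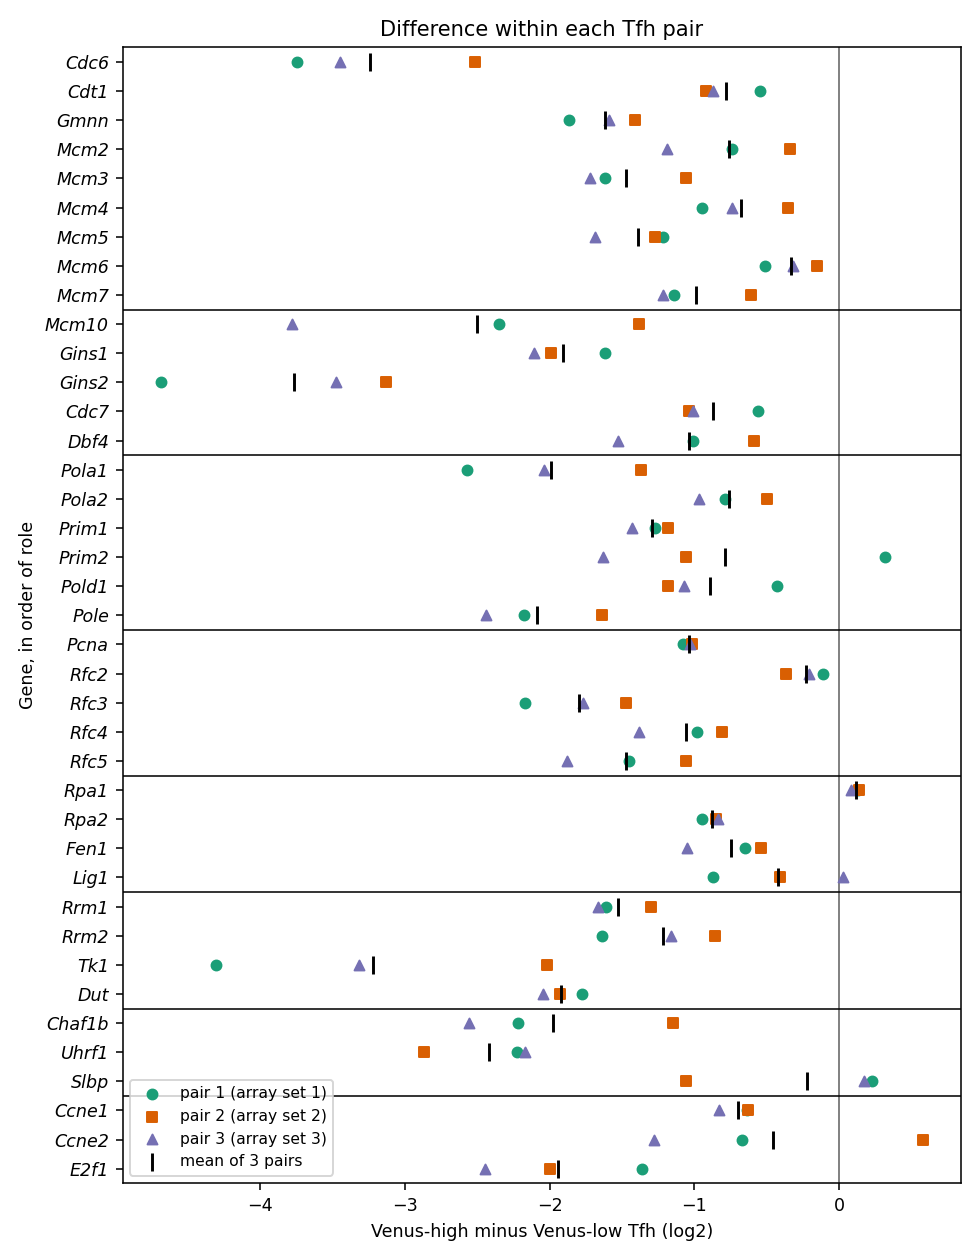
Venus-high minus Venus-low Tfh (log2) within each of the 3 pairs for the 39 genes, in order of role; points are pairs and the black tick is their mean. Points lie left of 0 in all 3 pairs for 34 genes, and Gins2, Cdc6 and Tk1 lie farthest left with means of -3.77, -3.24 and -3.22.

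The promoters of the genes were searched because they moved together. RefSeq promoter windows on GRCm38.p6, 250 bases before to 50 after a transcription start, were given for 33 of the 41 genes. An exact E2F site (TTTCCCGC, TTTGGCGC, TTTCGCGC or TTTGCCGC, on either strand) lay in a window of 11 of the 33 genes, or 33.3%, against 4.99% of the 8093 tested genes with a window and 2.26% of all 32851 windows. A CCAAT box (CCAAT) was present for 51.5% of the 33 genes and 43.5% of tested genes, and the CHR element TTTGAA for 12.1% and 14.2%. The 30 bases around each match that lay whole before a start are printed below 5′ to 3′ on the gene's strand, with the match in capitals, to show where these letters stand in genes of different roles. The likeness of the capitals follows from the search.
Cdc6, chr11:98908002-98908031, plus strand: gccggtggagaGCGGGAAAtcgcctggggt
Mcm5, chr8:75109345-75109374, plus strand: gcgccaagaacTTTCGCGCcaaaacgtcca
Mcm6, chr1:128359797-128359826, minus strand: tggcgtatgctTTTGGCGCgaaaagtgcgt
Mcm6, chr1:128359734-128359763, minus strand: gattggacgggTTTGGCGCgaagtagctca
Mcm7, chr5:138172030-138172059, minus strand: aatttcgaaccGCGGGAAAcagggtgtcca
Pola1, chrX:93632275-93632304, minus strand: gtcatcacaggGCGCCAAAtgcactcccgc
Uhrf1, chr17:56304117-56304146, plus strand: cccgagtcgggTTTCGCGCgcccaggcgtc
The Mcm5 match and the first Mcm6 match overlap a second match on the other strand by 4 bases. The windows of Mcm5 and Mcm6 lie outside the annotated gene, and the others lie before one start but inside the span of a longer annotated transcript. For the matches of Mcm3, Rfc3, Lig1, Pold1, Cdt1 and the second one of Mcm7, the 30 bases did not lie whole before the start. They are not printed. The tested genes with a match had a median Venus-high minus Venus-low difference of -1.39 (11 genes, from -3.24 to -0.33) and those with a window and no match -1.05 (20 genes, from -3.22 to 0.12). These matches are letters in a window and were not tested as binding sites.

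Of the 9 genes for licensing and helicase loading, 6 fell in Venus-high Tfh with the array set as a term and 1 without it, with a median difference of -0.99. Mcm3, a subunit of the helicase ring, read 10.76, 11.54 and 11.17 on the Venus-high arrays and 12.38, 12.61 and 12.89 on the Venus-low arrays. It read 12.04 and 11.73 in PD1-intermediate, 10.40 and 10.79 in PD1-low and 9.89 and 10.46 in naive cells. Every Venus-low array lay above every other array, and the fall of 1.47 ± 0.28 (SE; 2.76-fold) passed the test (adjusted p = 0.0454). Mcm5, another subunit of the ring, read 12.47, 11.76 and 11.80 in Venus-high, 13.68, 13.03 and 13.48 in Venus-low and 12.67 and 12.33 in PD1-intermediate cells. It read 10.70 and 11.46 in PD1-low and 11.04 and 10.50 in naive cells, again below every Venus-low array. The difference between the Tfh groups was -1.39 ± 0.32 without the term (adjusted p = 0.094) and -1.39 ± 0.16 with it (adjusted p = 0.00375).

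Cdc6, the loader that brings the ring to origins, had the widest Tfh difference of this role. It read 6.44, 7.97 and 7.84 in Venus-high and 10.20, 10.49 and 11.29 in Venus-low cells. In PD1-intermediate cells it read 9.78 and 8.73, in PD1-low cells 3.03 and 5.59, and in naive cells 2.24 and 4.23. The groups did not overlap, apart from the PD1-low and naive cells, and the Tfh difference of -3.24 corresponded to 9.46-fold (SE 0.79 and adjusted p = 0.116 without the term, SE 0.57 and adjusted p = 0.0125 with it). Of the other genes, Cdt1, Gmnn and Mcm7 fell with the term, by 0.78, 1.62 and 0.99. Mcm2, Mcm4 and Mcm6 did not pass (differences of -0.76, -0.68 and -0.33), although each was lower in all 3 pairs.

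All 5 genes of helicase activation and origin firing fell with the term and none without it, with a median of -1.91. Gins2, a subunit of the GINS complex that joins the ring to form the active helicase, read 4.30, 7.24 and 7.37 in Venus-high and 8.99, 10.37 and 10.86 in Venus-low cells. It read 9.65 and 8.77 in PD1-intermediate, 3.16 and 4.47 in PD1-low and 2.70 on both naive arrays. Its difference between the Tfh groups, -3.77 (13.6-fold), was the largest of the 39 genes (SE 0.85 and adjusted p = 0.0924 without the term, SE 0.52 and adjusted p = 0.00572 with it). The Venus-high array of pair 1 lay below log2 5, and with it set to log2 5 the difference was -3.53.

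Gins1, another GINS subunit, read 9.15, 8.95 and 9.52 in Venus-high and 10.77, 10.95 and 11.64 in Venus-low cells, and 10.32 and 10.06 in PD1-intermediate cells. In PD1-low cells it read 7.38 and 8.66 and in naive cells 8.39 and 7.07, so the Tfh and PD1-intermediate arrays all lay above these. It fell by 1.91 ± 0.28 with the term (adjusted p = 0.00646). Mcm10, which binds the helicase as it is switched on, read 7.85, 7.80 and 6.34 in Venus-high and 10.19, 9.19 and 10.12 in Venus-low cells. It read 7.92 and 5.99 in PD1-intermediate cells, which overlapped the Venus-high arrays, and below log2 5 on all 4 PD1-low and naive arrays. It fell by 2.50 ± 0.63 with the term (adjusted p = 0.0381), and its pair differences ran from -1.38 in pair 2 to -3.78 in pair 3. Cdc7 and its activator Dbf4 fell with the term by 0.87 and 1.04.

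Among the 6 genes of primase and the polymerases, 5 fell with the term and 1 without it, with a median of -1.09. Pole, the catalytic subunit of the leading-strand polymerase epsilon, read 9.67, 9.92 and 9.19 in Venus-high and 11.85, 11.56 and 11.63 in Venus-low cells. It read 9.99 and 9.52 in PD1-intermediate, 7.15 and 8.15 in PD1-low and 8.64 and 7.65 in naive cells. The Venus-low arrays stood above all others, and Pole fell in Venus-high cells by 2.09 ± 0.36 (4.25-fold, adjusted p = 0.0301). Pola1, the catalytic subunit of polymerase alpha, read 7.69, 8.93 and 8.92 in Venus-high and 10.27, 10.30 and 10.96 in Venus-low cells. It read 9.84 and 9.42 in PD1-intermediate, 6.83 and 8.01 in PD1-low and 6.5 and 6.80 in naive cells. It fell by 1.99 ± 0.27 with the term (adjusted p = 0.00547; 0.0774 without it). Prim1, the catalytic subunit of primase, read 12.34, 12.22 and 12.44 in Venus-high, 13.60, 13.40 and 13.88 in Venus-low and 13.04 and 12.63 in PD1-intermediate cells. It read 11.52 and 12.05 in PD1-low and 12.62 and 11.43 in naive cells, and fell by 1.29 ± 0.22 with the term (adjusted p = 0.0109). Pola2 and Pold1 also fell with the term, by 0.76 and 0.89. Prim2, the other primase subunit, did not pass, with differences of 0.32, -1.06 and -1.63 in pairs 1, 2 and 3.

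**Figure D3:**
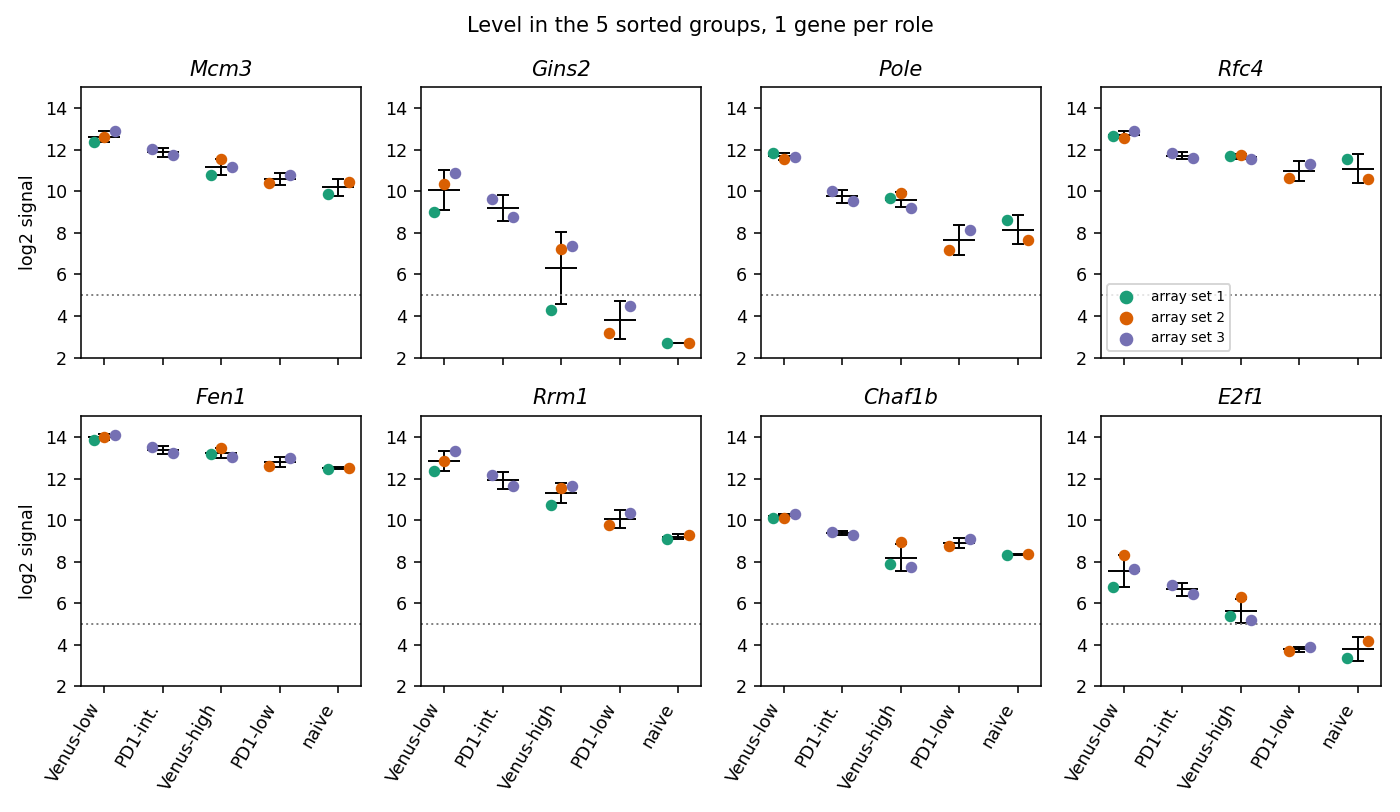
Log2 signal of the gene with the smallest p between the Tfh groups in each of the 8 roles, on each array (points, coloured by array set), in the 5 sorted groups, with the group mean and SD (n = 3, 2, 3, 2 and 2 from left to right); the dotted line marks log2 5. In all 8 genes the Venus-low group has the highest mean, and Gins2 and E2f1 lie under the line on both PD1-low arrays.

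Of the 5 genes of the sliding clamp and its loader, 4 fell with the term and none without it, with a median of -1.06. Pcna, the clamp that holds polymerases on DNA, read 12.67, 13.13 and 13.42 in Venus-high and 13.75, 14.15 and 14.45 in Venus-low cells. It read 13.85 and 13.64 in PD1-intermediate, 12.79 and 13.43 in PD1-low and 13.19 and 12.99 in naive cells. The pair differences of -1.08, -1.02 and -1.03 had an SD of 0.03, the smallest of the genes that fell, and Pcna fell by 1.04 ± 0.15 with the term (2.06-fold, adjusted p = 0.00639). Rfc4, a loader subunit, read 11.70, 11.76 and 11.54 in Venus-high, 12.68, 12.57 and 12.92 in Venus-low and 11.82 and 11.58 in PD1-intermediate cells. In PD1-low cells it read 10.63 and 11.33 and in naive cells 11.57 and 10.61. The Venus-high and PD1-intermediate arrays overlapped, and the fall of 1.06 ± 0.23 passed with the term (adjusted p = 0.0231). Rfc3, another loader subunit, read 7.16, 8.27 and 8.91 in Venus-high and 9.33, 9.74 and 10.68 in Venus-low cells. It read 9.39 and 9.13 in PD1-intermediate, 6.63 and 7.88 in PD1-low and 6.13 and 6.06 in naive cells, and fell by 1.80 ± 0.21 with the term (adjusted p = 0.00375). Rfc5 fell by 1.47 with the term, while Rfc2 differed by -0.23 and did not pass.

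The 4 genes of single-strand binding and the lagging strand moved least, with a median of -0.58, and 2 fell with the term. Fen1, which removes the flaps left by primers, read 13.18, 13.49 and 13.03 in Venus-high and 13.83, 14.02 and 14.09 in Venus-low cells. It read 13.52 and 13.24 in PD1-intermediate, 12.61 and 12.98 in PD1-low and 12.46 and 12.52 in naive cells, and fell by 0.75 ± 0.16 with the term (adjusted p = 0.0239). Rpa2, a subunit of the protein that coats single-stranded DNA, read 10.41, 10.83 and 11.22 in Venus-high and 11.36, 11.68 and 12.06 in Venus-low cells. It read 11.40 and 11.29 in PD1-intermediate, 10.46 and 11.0 in PD1-low and 10.09 and 10.16 in naive cells, and fell by 0.88 ± 0.10 with the term (adjusted p = 0.00328). The largest subunit of the same protein, Rpa1, was the gene with a higher mean in Venus-high cells (difference 0.12, not past the threshold), and its pair differences were 0.13, 0.14 and 0.08.

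Lig1, the ligase that joins the fragments of the lagging strand, stood apart from its partners. It read 10.35, 10.95 and 11.76 in Venus-high and 11.23, 11.36 and 11.74 in Venus-low cells, so that the groups overlapped and pair 3 differed by 0.03. It read 10.68 and 10.10 in PD1-intermediate, 8.19 and 8.72 in PD1-low and 7.79 and 7.70 in naive cells. Between the Tfh groups the difference of -0.42 did not pass (adjusted p = 0.234 with the term), while every Tfh array lay above every PD1-low and naive array.

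All 4 tested genes of nucleotide supply fell with the term and none without it, with a median of -1.72. Rrm1, the large subunit of ribonucleotide reductase, which makes deoxyribonucleotides, read 10.73, 11.52 and 11.63 in Venus-high and 12.34, 12.82 and 13.30 in Venus-low cells. It read 12.19 and 11.63 in PD1-intermediate, 9.76 and 10.36 in PD1-low and 9.11 and 9.29 in naive cells, and fell by 1.53 ± 0.18 (adjusted p = 0.00375 with the term). Rrm2, the small subunit, read 12.10, 12.71 and 12.86 in Venus-high and 13.74, 13.57 and 14.02 in Venus-low cells. It read 13.58 and 13.23 in PD1-intermediate, 10.58 and 11.32 in PD1-low and 9.65 and 10.47 in naive cells, and fell by 1.22 ± 0.22 (adjusted p = 0.013 with the term). Of the 3 probe sets of Rrm2 the brightest gave this difference, and the largest of the other two was -3.69. Dut, the enzyme that keeps uracil out of DNA, read 8.78, 9.73 and 10.72 in Venus-high and 10.56, 11.66 and 12.77 in Venus-low cells, groups that overlapped across pairs. Within pairs its differences were -1.78, -1.93 and -2.05, and it fell by 1.92 ± 0.20 (adjusted p = 0.00284 with the term), the smallest adjusted p of the 39 genes in that fit. Dut read 11.54 and 11.25 in PD1-intermediate, 9.08 and 10.54 in PD1-low and 9.0 and 9.13 in naive cells. Tk1, thymidine kinase, fell by 3.22 with the term (adjusted p = 0.0456), with pair differences of -4.31, -2.02 and -3.32.

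Of the 3 tested genes of chromatin and histone supply, Chaf1b fell in both fits, Uhrf1 with the term and Slbp in neither. Chaf1b, a subunit of the factor that places histones on new DNA, read 7.90, 8.96 and 7.74 in Venus-high and 10.12, 10.11 and 10.30 in Venus-low cells. It read 9.45 and 9.29 in PD1-intermediate, 8.73 and 9.08 in PD1-low and 8.32 and 8.35 in naive cells. Its fall of 1.98 ± 0.31 (3.94-fold, adjusted p = 0.0207) had the smallest adjusted p of the 39 genes without the term, and Venus-high cells had its lowest group mean. Uhrf1, which helps copy DNA methylation, read 9.90, 9.98 and 11.18 in Venus-high and 12.13, 12.84 and 13.36 in Venus-low cells. It read 12.22 and 11.80 in PD1-intermediate, 7.89 and 10.16 in PD1-low and 8.08 and 8.09 in naive cells, and fell by 2.42 ± 0.30 with the term (5.37-fold, adjusted p = 0.00435). Slbp, which binds the stem-loop of replication-dependent histone mRNAs, read 11.32, 11.47 and 11.85 in Venus-high and 11.09, 12.52 and 11.69 in Venus-low cells. It read 11.99 and 11.81 in PD1-intermediate, 10.87 and 12.06 in PD1-low and 10.80 and 10.99 in naive cells. Its pair differences of 0.23, -1.06 and 0.17 had no common direction.

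Of the 3 genes of G1/S control, E2f1 and Ccne1 fell with the term and Ccne2 did not. E2f1, a transcription factor of S phase genes, read 5.41, 6.29 and 5.18 in Venus-high and 6.77, 8.30 and 7.63 in Venus-low cells. It read 6.89 and 6.46 in PD1-intermediate cells and below log2 5 on the 4 PD1-low and naive arrays (3.71, 3.88, 3.37 and 4.19). It fell by 1.94 ± 0.28 with the term (3.84-fold, adjusted p = 0.00662). Ccne1, a cyclin E that drives entry into S phase, read 9.54, 9.74 and 10.33 in Venus-high and 10.18, 10.37 and 11.16 in Venus-low cells, and fell by 0.70 ± 0.17 with the term (adjusted p = 0.0336). It read 10.21 and 9.81 in PD1-intermediate, 7.39 and 8.77 in PD1-low and 7.82 and 7.97 in naive cells, so that all Tfh and PD1-intermediate arrays lay above the rest. Ccne2, the other cyclin E, read 7.04, 9.36 and 8.34 in Venus-high and 7.71, 8.78 and 9.62 in Venus-low cells, with a pair difference of 0.58 in pair 2. It read 8.29 and 8.03 in PD1-intermediate, 6.64 and 7.28 in PD1-low and 7.04 and 7.50 in naive cells.

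Several genes were read by more than 1 probe set. For all 24 genes with several tested probe sets these had the same sign of the Tfh difference, lower in Venus-high cells for 23 and higher for Rpa1. Of the 39 probe sets used, 8 were of the _x_at and 4 of the _s_at type, which can bind related transcripts. Without those types the median difference was -1.48 in place of -1.06.

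The Tfh groups also differed in genes of regulatory T cells, a list added after the data were seen. Foxp3, the defining factor of those cells, read 6.19, 5.73 and 6.07 in Venus-high and 11.16, 10.71 and 11.13 in Venus-low cells. It read 11.05 and 11.34 in PD1-intermediate, 11.52 and 12.34 in PD1-low and 10.14 and 8.22 in naive cells. Ikzf4, Il2ra and Gpr83 were also lower on each Venus-high array than on each Venus-low array, while Ikzf2 ranged from 12.83 to 13.79 and from 12.79 to 13.85. Over the 5 of 5 genes the summed signal was 12.85 to 13.80 (log2) in Venus-high and 13.26 to 14.24 in Venus-low cells. PD1-low cells had the highest Foxp3 values. The part of regulatory T cells in the Tfh difference was not tested.

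Venus-low Tfh were then set against PD1-intermediate cells, which share CXCR5 and differ in PD1. The median difference over the 39 genes was 0.60 log2 units against -0.40 over all genes. Both PD1-intermediate arrays lay in array set 3, whose arrays had 75th percentiles of 9.39 to 9.42 (log2), against 8.5 to 8.76 in the other sets. Without the term, 0 of 39 genes passed in limma (0.566% of all genes did), with 10 of 39 at an unadjusted p under 0.05 (10.4% of all genes). Pole, at 1.93 ± 0.41 (adjusted p = 0.0898), and Mcm10, at 2.88 ± 0.76 (adjusted p = 0.204), had the smallest p. With the array set as a term the median was 0.93 against -0.01 over all genes, 39 of 39 genes were above 0, and 12 rose and 0 fell (3.99% of all genes rose). Pole rose by 1.90, Uhrf1 by 1.70, Lig1 by 1.55, Rfc3 by 1.49 and Dut by 1.36, each in Venus-low cells. Within array set 3, Venus-low 3 lay above the mean of the PD1-intermediate arrays for 38 of 39 genes, with a median of 0.98. The 17 genes whose groups did not overlap were all higher in Venus-low cells (5.86% of all genes). The count of 12 was 0 without Venus-low 2, Venus-low 3, PD1-intermediate 2 or array set 2, 1 without PD1-intermediate 1, 3 without Venus-high 1 or Venus-high 3, 4 without Venus-low 1, 5 without array set 1 and 6 without either PD1-low array.

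Venus-high Tfh were set against PD1-intermediate cells in the same way. The median over the 39 genes was -0.63 against -0.42 over all genes, and 0 of 39 passed without the term (2.66% of all genes did), with 6 at an unadjusted p under 0.05 (12.9% of all genes). Chaf1b, at -1.17 (adjusted p = 0.155), and Gins2, at -2.91 (adjusted p = 0.209), had the smallest p. With the term the median was -0.31 against -0.01, and 2 of 39 passed. Lig1 rose in Venus-high cells by 1.13 ± 0.28 (adjusted p = 0.0465; 6.09% of all genes rose) and Pola2, a subunit of polymerase alpha, fell by 0.73 ± 0.15 (adjusted p = 0.0254; 4.69% fell). The values did not overlap for 21 genes, all lower in Venus-high cells (34.9% of all genes in that direction). In array set 3, Venus-high 3 was below the PD1-intermediate mean for 32 of 39 genes (median -0.54), by up to 1.84 for Gins2, and was above it by 1.38 for Lig1. The call of Lig1 did not outlast the omission of array set 2, of Venus-high 2 or 3, or of any Venus-low, PD1-intermediate or PD1-low array. That of Pola2 was the only fall, and no gene fell without array set 1, Venus-high 1, Venus-high 3 or either PD1-intermediate array.

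PD1-intermediate cells held more of the replication mRNAs than PD1-low cells. All 39 genes were above 0, with a median of 1.29 against 0.29 over all genes. Without the term 5 rose and 0 fell (3.08% of all genes rose), and with it 17 rose and 0 fell (8.09%). Rrm2 rose by 2.45 ± 0.40 (5.47-fold, adjusted p = 0.0104) and Pole by 2.10 ± 0.44 (adjusted p = 0.0347). Cdc6, below log2 5 on 1 of the 2 PD1-low arrays, was at least 15.6-fold higher with that array set to log2 5 (fitted difference 4.95 ± 0.97, adjusted p = 0.024). Gins2, below log2 5 on both PD1-low arrays, was at least 18.5-fold higher against that level (fitted difference 5.39 ± 1.04, adjusted p = 0.0227). E2f1, likewise below it, was at least 3.19-fold higher (2.88 ± 0.55, adjusted p = 0.0208). The groups did not overlap for 36 genes (41.2% of all genes in that direction). In array set 3 the PD1-intermediate mean lay above PD1-low 2 for 37 of 39 genes, with a median of 0.88 and 0.01 over all genes. The count of 5 was 0 without either PD1-intermediate array or PD1-low 1 and 8 without PD1-low 2, and that of 17 was 4 without PD1-intermediate 1 and 11 without PD1-low 1.

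Venus-high Tfh, the Tfh group with less of these mRNAs, were still above PD1-low cells in the median. The median was 0.68 against -0.09 over all genes, 7 genes rose and 0 fell without the term (6.34% of all genes rose), and 20 rose and 0 fell with it (19.0%). Lig1 rose by 2.57 ± 0.41 (5.94-fold, adjusted p = 0.00388), Pole by 1.94 ± 0.41 (adjusted p = 0.0153) and Ccne1 by 1.79 ± 0.46 (adjusted p = 0.0388). Mcm10, below log2 5 on both PD1-low arrays, exceeded that level at least 5.03-fold in Venus-high cells (3.61 ± 0.76, adjusted p = 0.0158). E2f1, likewise below it, did so at least 1.54-fold (1.83 ± 0.50, adjusted p = 0.049). Rrm2 and Mcm6 also rose, and Chaf1b was the gene farthest below 0 (-0.70, not past the threshold). The arrays did not overlap for 16 genes (14.5% of all genes). Venus-high 2 lay above PD1-low 1 by a median of 1.15 in array set 2, and Venus-high 3 above PD1-low 2 by 0.38 in array set 3. The count of 7 was 1 without PD1-low 1, 4 without Venus-high 3 and, without Venus-high 2, 2 that rose and 1 that fell, and that of 20 was 7 without PD1-low 1. Without array set 2 the 20 became 4 that rose and 1 that fell, and without array set 3 they became 9.

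Between PD1-low and naive cells 0 of 39 genes passed with or without the term (0.566% and 0.0809% of all genes), with 1 of 39 at an unadjusted p under 0.05 in each limma fit (13.5% of all genes with the term and 4.32% without it). The median was 0.31 against 0.28 over all genes, and 0.04 against -0.04 with the term. Rrm2, at 0.89 ± 0.40, and Tk1 had the smallest p (adjusted p = 0.957 for both). Tk1 lay below log2 5 on both naive arrays and on PD1-low 1 (3.94), and read 7.49 on PD1-low 2. Its fitted 3.31 ± 1.36 therefore rests on 1 array above that level. With values under log2 5 set to it, the PD1-low mean was 2.37-fold higher. Values did not overlap for 12 genes, higher in PD1-low cells (29.1% of all genes in that direction). Both groups lay at or under log2 5 for Mcm10, Gins2 and E2f1, for which no order is given. The comparisons above share their groups of arrays, so their values stand side by side and are not independent.

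The rest of the replication pathway was also lower in Venus-high Tfh. Of 44 further replication genes, 41 were tested, 39 of them lower in Venus-high than in Venus-low Tfh, with a median of -1.13. Without the term 5 fell and with it 25 fell (0.88% and 9.43% of all genes), and 0 rose in either fit. They include Cdc45, which completes the active helicase (-3.42 ± 0.56, adjusted p = 0.0252), Pole2, the second subunit of polymerase epsilon (-3.62 ± 0.49, adjusted p = 0.012), and Chtf18, a clamp loader subunit (-2.24 ± 0.32, adjusted p = 0.0148). Orc1, an origin recognition subunit, also passed (-3.58 ± 0.45, adjusted p = 0.00998), but lay below log2 5 on all 3 Venus-high arrays and 1 Venus-low array, and differed by -0.96 with these set to log2 5. Pole2 lay below log2 5 on 1 Venus-high array, and differed by -3.53 between the Tfh groups with it set to log2 5. Pole2 was also lower in Venus-high than in PD1-low cells, by 2.94 ± 0.55 log2 units (adjusted p = 0.00859), or by 2.84 so set. Of the list, 9 rose in Venus-low over PD1-intermediate cells with the term (3.99% of all genes) and 1 without it (0.354%). In PD1-intermediate over PD1-low cells 8 rose with the term (8.09%) and 2 without it (3.08%). Against PD1-low cells, Venus-high cells had a median of -0.03 over the list, with 20 genes above 0 and 21 below. With the term 5 rose and 4 fell (19.0% and 15.6% of all genes), and without it 3 rose and 1 fell (6.34% and 4.93%).

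Relatives of the replication genes with other duties had a median near 0. The 10 paralogs, such as Rrm2b, Tk2 and Polg, had a median Tfh difference of 0.15. In limma 0 were called without the term and 1 with it (1.31% and 16.9% of all genes in either direction). Mcm8, an Mcm relative that acts in DNA repair, differed by -1.53 ± 0.41 (adjusted p = 0.154; 0.0356 with the term) and Dguok, a mitochondrial nucleoside kinase, by 0.36 ± 0.32. The list of 8 cell cycle genes named G1 cyclins and kinases had a median of -0.54. With the term 2 fell (9.43% of all genes did), Cdk4 by 0.79 ± 0.11 and Ccna2 by 1.99 ± 0.44. Ccna2 encodes cyclin A2, which acts in S phase and G2, so that Cdk4 is the G1 gene among them. How these lists differ from the 39 genes was not tested.

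Mitosis genes were lower in Venus-high than in Venus-low Tfh as well. Of 12 listed, 11 were tested, with a median Tfh difference of -2.12. Without the term 1 fell and with it 9 fell (0.88% and 9.43% of all genes). Cdc20, which turns on the ubiquitin ligase of anaphase, fell by 1.86 ± 0.28 (adjusted p = 0.0168). In Venus-high against PD1-low cells the median of the mitosis genes was 3.70, beside 0.68 for the 39 replication genes. With values under log2 5 set to it these were 3.31 and 0.63. Without the term 7 rose and with it 10 rose (6.34% and 19.0% of all genes). In PD1-intermediate against PD1-low cells the median was 4.76, beside 1.29 (4.01 and 1.29 so set), and 7 and 9 rose (3.08% and 8.09%). Mki67, a marker of cycling cells, rose by 4.35 ± 0.48 in Venus-high cells over PD1-low cells (adjusted p = 0.000542) and by 4.24 ± 0.53 in PD1-intermediate cells (adjusted p = 0.00278). The probe set of Top2a in this list was among those out of place in array set 2, as was that of Orc4 in the list above. Neither is described by itself, but such probe sets were not left out of the counts and medians of the lists.

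**Figure D4:**
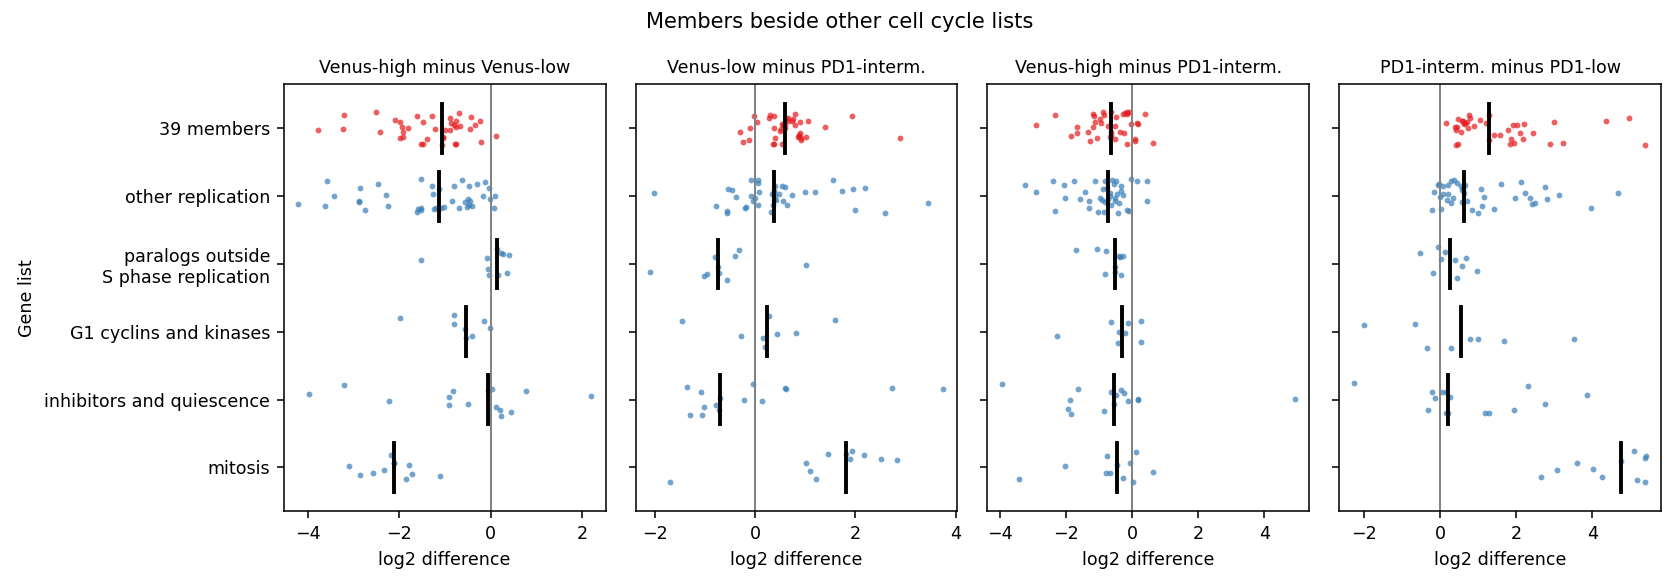
Difference (log2, x axis) of each tested gene in 4 comparisons, for the 39 replication genes (red) and 5 other cell cycle lists (blue); black bars are medians, and the vertical spread of points within a list has no meaning. Between the Tfh groups the medians are -1.06 for the 39 genes, -1.13 for other replication genes, -2.12 for mitosis and 0.15 for the paralogs.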

How the data were processed

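Each of the 12 samples was 20 ng of RNA, amplified and hybridized to an Affymetrix mouse array. The table holds 1 log2 signal for each probe set and array, made by the authors with GCRMA per the submitters' processing notes; its version and the arrays normalized together are not given in the sources used here. It held 45101 probe sets, and 34958 had 1 gene symbol in the platform annotation, 932 several and 9211 none. No detection calls were used.

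The members and lists were chosen with earlier results of these data known. In each role up to 3 genes with the smallest p between the Tfh groups were given on every array, and in other comparisons up to 5 of those past the threshold with the largest change, or the 2 with the smallest p. Genes were fitted with limma 3.58.1 (R 4.3.3): 5 group means, 12 arrays, 7 residual degrees of freedom, 2-sided moderated tests, Benjamini-Hochberg adjustment over 9886 genes, adjusted p under 0.05. The array set as a term left 5 residual degrees of freedom. Same-numbered Tfh arrays deviated together (correlations of 0.914, 0.946 and 0.915). They also shared an array set, and the sets were taken from the same values, so number and set cannot be told apart here. Venus-high 2 had a correlation of 0.861 with PD1-low 1, of the same set. The deviations of the 2 PD1-low arrays from their mean mirror each other. The correlation of -0.861 with PD1-low 2, of the same number, therefore follows from the first and adds nothing to it. The fits were run on simulated data in which the array sets were taken as known, so the choice of sets was not tested. Alternatives changed the filter, floor, normalization, variance model, probe set, array set, pairing, weights and arrays. Python 3.11.15 and matplotlib 3.10.9 drew the figures.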

Additional observations from a re-analysis of the deposited data

How the results depend on the processing

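Values are counts of the 39 genes past the threshold. For Venus-high against Venus-low Tfh (3, all lower), the count was 1 with no low-value filter, 5 with a floor at log2 5, 17 with quantile normalization again, 13 with median centring, 1 with the second probe set, 30 with the array set as a fixed term, 32 with it as a random block, 0 without array set 2, 0 with only the groups compared and 29 with array weights, whose estimation did not converge. The pairing gave 8 with the replicate block on 12 arrays and 26 with the replicate block on the 6 Tfh arrays. With the array set as a term it was 31 without _s_at and _x_at probe sets, 25 without array set 2, 21 without array set 1 and 0 without array set 3. Every call in these fits was in the lower direction.

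For Venus-low against PD1-intermediate cells (0), it was 3 with quantile normalization, 1 with centring, 12 with the fixed term, 19 with the random block, 2 with the replicate block on 12 arrays, 22 with weights, 14 with the fixed term without _s_at and _x_at probe sets and 5 with it without array set 1. For Venus-high against PD1-intermediate cells (0), it was 1, 1, 2, 3, 10 and 26 in the same order up to weights. The direction of these calls differed. Quantile normalization and centring each gave 1 rise, and the fixed term 1 rise and 1 fall. The random block gave 1 rise and 2 falls, the replicate block 10 falls, and weights 2 rises and 24 falls. With the fixed term the count was 2 without _s_at and _x_at probe sets (1 rise, 1 fall), 2 without array set 2 (both falls) and 1 without array set 1 (a rise). For PD1-intermediate against PD1-low cells (5), it was 2 with no filter, 11 with quantile normalization, 10 with centring, 8 with trend and robust, 0 with the second probe set, 17 with the fixed term, 19 with the random block, 0 without array set 2, 9 without displaced probe sets, 13 with the replicate block, 0 with only the groups compared and 10 with weights. With the fixed term it was 18 without _s_at and _x_at probe sets, 12 without array set 2 and 17 without array set 1. For Venus-high against PD1-low cells (7), it was 12 with quantile normalization, 1 with the second probe set, 20 with the fixed term, 22 with the random block, 0 without array set 2, 0 with only the groups compared, 20 with the fixed term without _s_at and _x_at probe sets and 18 with it without array set 1. PD1-low against naive cells gave 0 under every alternative run.

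Leaving out each array in turn gave 0 to 2 for the Tfh groups (17 to 31 with the fixed term; 24 without Venus-low 1), 0 for Venus-low against PD1-intermediate (0 to 14), 0 to 1 for Venus-high against PD1-intermediate (0 to 2), 0 to 8 for PD1-intermediate against PD1-low (4 to 20; 15 or 16 without Venus-high 3 or a Venus-low array) and 1 to 7 for Venus-high against PD1-low cells (7 to 23). Over single arrays left out, the Tfh difference of Slbp ran from -0.56 to 0.27 and that of Ccne2 from -1.02 to 0.15 (-1.01 without the term). Slbp turned to 0.20 without array set 2, with or without the fixed term, to 0.16 without Venus-low 2 and to 0.27 without it with the term. Ccne2 turned to 0.53 with array weights, 0.15 without Venus-high 1 and 0.0 without Venus-low 3. No other of the 39 differences changed sign. Fits combining the fixed term with fewer arrays or probe sets were chosen after seeing the data, and the cause of these changes was not tested. The number of arrays, 2 in each of 3 groups, limits the precision, and values under log2 5 have no reliable order.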

Other observations

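Genes that hold the cell cycle back, or accompany quiescence, had Tfh differences in both directions. Of 15 listed and tested, 8 were lower and 7 higher in Venus-high than in Venus-low Tfh, with a median difference of -0.06. Without the array set term 1 fell (0.88% of all genes). With it 4 fell and 1 rose, where 9.43% of all genes fell and 7.48% rose. E2f7, a repressor in the E2F family, read a mean of 4.18 in Venus-high and 8.14 in Venus-low Tfh (difference -3.97 ± 0.56, adjusted p = 0.0132). It lay below log2 5 on 2 Venus-high arrays, and with these set to log2 5 was at least 8.49-fold lower there. Cdkn1a, which encodes the kinase inhibitor p21, differed by 2.20 ± 0.71 (adjusted p = 0.257) and rose with the term (adjusted p = 0.0339). Against PD1-low cells, Cdkn1a, below log2 5 on both PD1-low arrays, was at least 19.8-fold higher in Venus-high cells (fitted difference 6.85 ± 0.80, adjusted p = 0.000716). Klf2, a factor of resting T cells and below log2 5 on all 3 Venus-high arrays, was at least 40.3-fold lower there (-6.19 ± 0.81, adjusted p = 0.00133). These genes were not tested against the replication genes.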
